A study of Mus musculus with 2 samples.

Results

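The clustered histone genes are the mouse histone genes whose older symbols start with Hist1h, Hist2h, Hist3h or Hist4h, after the histone gene clusters. Of 69 annotated rows with such a symbol, 68 had at least 1 unique molecular identifier (UMI, a count of 1 captured transcript) and are described here, of 17768 genes with a UMI in the library. The row without a UMI was Hist1h2ba, a testis H2B gene, and the members nearest to that limit were Hist1h3h and Hist1h2bq with 1 UMI each. The members comprise 6 H1, 19 H2A, 18 H2B, 12 H3 and 13 H4 genes. By symbol, 54 belong to cluster 1, 11 to cluster 2, 2 to cluster 3 and 1 to cluster 4. Hist2h2bb occurs as 2 rows, which were kept apart.

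The data are 1 CITE-seq experiment, in which transcripts and antibody barcodes were counted in the same cells. The cells came from pooled livers of C57BL/6 mouse embryos at e13.5, with a part of the Ter119+ cells removed beforehand, and no genotype or treatment sets them apart. Cells with low counts of 5 lineage antibodies were divided by Ter119, a surface protein of maturing erythroblasts, and CD71, the transferrin receptor. S0-low, S0-medium and S1 have low Ter119 with low, intermediate and high CD71, S2 has intermediate Ter119 and S3 high Ter119 with high CD71, and S4/S5 has high Ter119 with lower CD71, in the order of erythroid maturation. The positions of the study's sorting gates were not used, so these populations were rebuilt from the antibody counts and may not match the sorted ones.

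With 1 cDNA library no value has a replicate error, cells are not replicates, and no p-value is given. Levels are means over cells of the UMIs per 1000000 UMIs of the cell (CPM), with 95% intervals in brackets for counting error only. The populations hold 1510 S0-low, 1054 S0-medium, 612 S1, 1298 S2, 854 S3 and 882 S4/S5 cells, with median depths between 3943.5 and 10282 UMIs per cell. A list of 8 erythroid markers, all detected in every population, summed to 899 CPM in S0-low and to 8907 CPM in S3. In S0-low cells all 8 hepatocyte markers were detected and summed to 6522 CPM, against 410 to 712 CPM in the other populations. Of S0-low cells, 27.1% were high in a list of another cell type, with 7.28% high in hepatocyte and 5.3% in granulocyte and monocyte markers. Lymphoid and endothelial markers summed to 26 and 20.8 CPM, and 10.5% and 6.75% were high in them. Few marker UMIs may suffice there, so 27.1% need not be cells of other types. Globin genes took between 1.05% and 2.8% of the UMIs in the Ter119-low populations, 13.1% in S2, 37.9% in S3 and 64.1% in S4/S5. Because this lowers the CPM of every other gene, levels are also given per 1000000 UMIs outside globin genes and as UMIs per cell.

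Histones H2A, H2B, H3 and H4 form the core of the nucleosome, around which DNA is wound, and the linker histone H1 binds where the DNA enters and leaves it. Most histone protein is made in S phase, when newly replicated DNA has to be packaged. Transcripts of the clustered genes mostly end in a conserved stem-loop in place of a poly(A) tail. The stem-loop binding protein holds this end, and the transcripts are destroyed when replication stops. Some clustered genes can also end further downstream at an ordinary polyadenylation signal, among them Hist1h2bc and Hist1h1c. The library here was primed on poly(A), which captures transcripts without a tail poorly, so the values below are not levels of all transcripts of these genes. In single cells counted this way, less of a transcript and less of it with a tail cannot be told apart.

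The stem-loop is printed because almost all members share it and the rule that chose them did not use it. It was searched in the GENCODE M1 annotation of NCBIM37 (mm9) as a stem of 6 base pairs with a loop of 4 bases within 200 bases after the stop codon. The stem had to start with GG and end with CC, and the loop had to start with C or T, then T, then C or T. These bases of the printed forms were thus set by the search. A match was found in 59 of the 66 members with an annotated coding transcript, and no share over other genes was taken. It took 6 forms, and 4 of them are given as DNA of the coding strand, 5′ to 3′, with the loop in capitals.
Form in 38 members, among them Hist1h2bc, Hist1h1c and Hist1h1b: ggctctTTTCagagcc
Form in 8 members, among them Hist4h4: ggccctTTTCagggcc
Form in another 8 members, among them Hist1h2bb: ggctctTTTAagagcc
Form in 2 members, Hist1h4i and Hist2h4: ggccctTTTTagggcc

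The annotated transcript ended before or within 100 bases after the stem-loop in 40 members and further downstream in 19, and in 7 members no stem-loop was found. A polyadenylation signal, AATAAA or ATTAAA, stood in the last 50 bases of the annotated transcript of 16 members and was absent from those of 50, and no coding transcript was found for Hist2h3c2 and 1 row of Hist2h2bb. The first 16 are called members with a signal in the tail. They include Hist1h2bc, whose annotated 3′ region is spliced, Hist1h1c with an end 839 bases past the stem-loop, Hist3h2a with an end 1487 bases past it and Hist1h4i with an end 150 bases past it. Hist1h1b, Hist1h1e, Hist1h2ap and Hist4h4 are among the 50 without one. For these 4 genes the annotated transcript ends before or near the stem-loop, so a longer transcript that it lacks would have been missed. In Hist1h1b and Hist4h4, as in some others of the 50, the annotated transcript ends at the stop codon. The bases searched there were coding, so the lack of a signal is not evidence about their 3′ regions. Hist1h1d, also without a signal, has an annotated end 3050 bases past the stem-loop.

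Promoters were read from RefSeq (GRCm38.p6, from 250 bases before to 50 after the start of the gene) for 60 of the 68 members. Motifs were searched on both strands, and overlaps between motifs or between the windows of neighbouring genes were not removed. CCAAT, a common promoter element, occurred in 85.5% of the 62 promoters of these genes, Hist1h2ba included, against 37.4% of all 32851 promoters of that length. TATAAA, the TATA box, occurred in 56.5% against 13.6%. ATTTGCAT, the octamer known from H2B promoters, occurred in 21% against 1.74%, and AAACACA, known as an H1 element, in 14.5% against 7.18%. By class, AAACACA was found in 5 of 6 H1 members, in 2 of 18 H2A and 1 of 14 H2B members and in none of the H3 and H4 members. ATTTGCAT was found in 7 of 18 H2A and 5 of 14 H2B members and in no other class. Some windows of neighbouring H2A and H2B genes overlap and hold the same site, so these counts are not of separate sites. CCAAT was found in every H1, H2A, H2B and H3 member with a promoter in the table, but in 3 of 12 H4 members.

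The promoters of the 3 H1 genes with the most UMIs are printed, and all 3 hold AAACACA and CCAAT. Hist1h1d and Hist1h1t, not printed, hold both as well. The level of Hist1h1c, given below, took another course than those of Hist1h1b and Hist1h1e. Capitals mark CCAAT on either strand, the H1 element AAACACA and the TATA box.
Hist1h1b, chr13:21780576-21780875, minus strand: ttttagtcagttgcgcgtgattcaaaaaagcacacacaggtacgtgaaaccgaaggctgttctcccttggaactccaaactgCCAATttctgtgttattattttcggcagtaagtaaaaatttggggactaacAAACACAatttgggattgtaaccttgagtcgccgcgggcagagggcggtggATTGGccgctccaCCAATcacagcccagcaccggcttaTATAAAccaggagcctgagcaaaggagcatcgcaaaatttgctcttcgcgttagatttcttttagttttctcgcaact
Hist1h1e, chr13:23622509-23622808, minus strand: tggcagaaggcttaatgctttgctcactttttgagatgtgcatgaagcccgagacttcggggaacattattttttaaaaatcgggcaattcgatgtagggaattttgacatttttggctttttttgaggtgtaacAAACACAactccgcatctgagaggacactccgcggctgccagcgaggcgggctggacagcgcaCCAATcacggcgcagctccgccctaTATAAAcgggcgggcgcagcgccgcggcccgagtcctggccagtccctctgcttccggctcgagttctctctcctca
Hist1h1c, chr13:23738557-23738856, plus strand: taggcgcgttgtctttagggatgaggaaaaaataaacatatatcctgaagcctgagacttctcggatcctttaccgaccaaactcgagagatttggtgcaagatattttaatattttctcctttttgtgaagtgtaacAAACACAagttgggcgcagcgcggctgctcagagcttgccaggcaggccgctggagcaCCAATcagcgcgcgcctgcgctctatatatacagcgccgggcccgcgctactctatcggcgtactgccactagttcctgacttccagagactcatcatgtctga
All 3 hold AAACACA followed by CCAAT, and Hist1h1b and Hist1h1e also hold TATAAA. Of the H1 genes not printed, Hist1h1a and Hist1h1d hold TATAAA and Hist1h1t does not. A match describes letters in this window and is not a measured binding site.

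The clustered histone genes took 34492 of 58606632 UMIs (0.0589%), of which 27449 lay in the 6 populations. A few members held most of them. The 2 highest, Hist1h4i and Hist1h2bc, held 43% of the member UMIs in the populations, the 4 highest 64.9% and the 20 highest 95%. At least 50 UMIs were counted there for 29 members and fewer for 39, and 14 had under 10 UMIs in the whole library. By class, H1 genes held 30.8% of these UMIs, H4 genes 28.6%, H2B genes 25%, H2A genes 14.2% and H3 genes 1.38%. Genes of 1 core histone class are near-identical in their coding parts, so counting could split or drop reads between copies, and the levels of single copies are uncertain.

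Summed over all members, the level was highest in S3 and lower again in S4/S5, and in CPM it rose late. It was 450 CPM (435 to 465) in S0-low, 452 (436 to 468) in S0-medium, 511 (489 to 534) in S1, 945 (921 to 970) in S2, 1238 (1202 to 1274) in S3 and 680 (652 to 708) in S4/S5. S2 lay 1.85-fold (1.76 to 1.94) above S1 and S3 1.31-fold (1.26 to 1.36) above S2, and S4/S5 stood at 0.549 (0.523 to 0.577) of S3. S0-medium over S0-low was 1 (0.957 to 1.05), so in CPM these neighbours did not differ beyond counting error. In UMIs per cell the sum was 3.24 (3.15 to 3.33) in S0-low and 4.2 (4.07 to 4.32) in S0-medium, then 4.81, 5.62, 6.28 and 2.88. On this scale it was higher at each step up to S3, so the timing of the rise depends on the scale. UMIs per cell also move with depth, whose part was not tested. Median depth from S0-low to S4/S5 was 6146, 10282, 10151.5, 6019.5, 4502 and 3943.5 UMIs. S4/S5 cells had a higher CPM but fewer UMIs per cell than S0-low cells. Outside globin UMIs the sum was 458, 467, 547, 1278, 2241 and 1792 CPM, with S3 again highest.

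**Figure D1:**
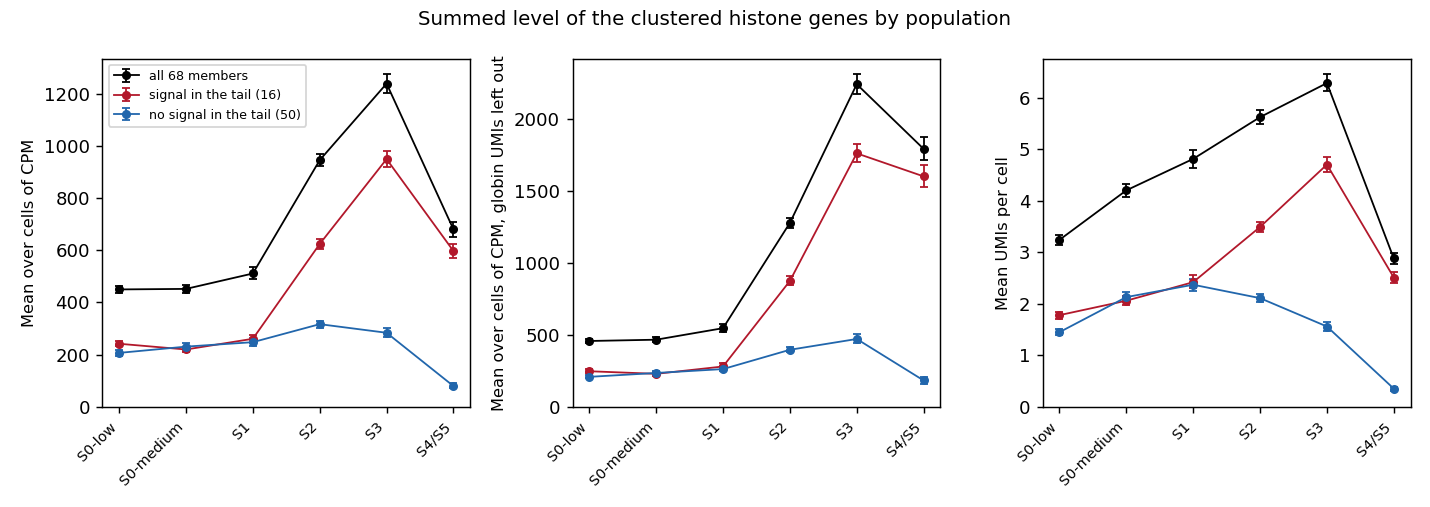
Summed level of the clustered histone genes (y axis) in the 6 populations (x axis) as mean CPM, as mean CPM without globin UMIs and as UMIs per cell, for all 68 members, the 16 with and the 50 without a polyadenylation signal in the annotated tail. Bars are 95% intervals of counting error in 1 library. In CPM the members with a signal reach 949 in S3, where those without stand at 284, and in S4/S5 they stand at 597 and 80.

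Members with and without a signal in the tail differed in sum, largely through 2 genes with a signal, Hist1h2bc and Hist1h1c. Those with a signal summed to 242 CPM (232 to 253) in S0-low, 220 (209 to 231) in S0-medium, 261 (245 to 277) in S1, 624 (604 to 644) in S2, 949 (918 to 981) in S3 and 597 (571 to 623) in S4/S5. Those without summed to 207 CPM (197 to 217) in S0-low, 231 (220 to 243) in S0-medium, 248 (233 to 264) in S1, 317 (304 to 331) in S2, 284 (267 to 301) in S3 and 80 (70.9 to 90.2) in S4/S5. The first group was highest in S3 and stood in S4/S5 above its level in S1, and the second was highest in S2 and lowest in S4/S5. S3 over S1 was 3.64 (3.4 to 3.9) with and 1.14 (1.05 to 1.24) without a signal, and S4/S5 over S3 was 0.628 (0.595 to 0.664) and 0.282 (0.247 to 0.322). Without Hist1h2bc and Hist1h1c, a split made after the values were seen, the other 14 members with a signal summed to 192 CPM in S1, 333 CPM in S2, 325 CPM in S3 and 121 CPM in S4/S5. Their ratio was 1.69 (1.55 to 1.85) for S3 over S1 and 0.374 (0.335 to 0.417) for S4/S5 over S3, so in CPM they were lower in S4/S5 than in S1, and S2 and S3 did not differ beyond counting error. Outside globin UMIs they were at 205, 430, 557 and 313 CPM in the same order, so both statements depend on the scale. Of the 50 members without a signal, some, among them Hist1h1b and Hist4h4, had no annotated bases after the stop codon to search. Hist4h4 is a gene with known polyadenylated transcripts. The 49 others were at 225 CPM in S1, 261 CPM in S2 and 228 CPM in S3, with S3 over S1 at 1.01 (0.925 to 1.11). Members with a signal gave 50.4% of the member UMIs in S1, 74.7% in S3 and 87.2% in S4/S5. In UMIs per cell those without a signal fell from S1 to S3, with 2.37, 2.11 and 1.56 in S1, S2 and S3, while outside globin UMIs they rose, with 263, 397 and 472 CPM. The direction of these members before S4/S5 therefore depends on the scale, and UMIs per cell also follow the depth given above. S4/S5 was their lowest population on all 3 scales. Outside globin UMIs, however, S4/S5, at 184 CPM (161 to 211), overlapped S0-low, at 209 CPM (199 to 221).

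Single members were called by a fixed size of at least 2-fold in the ratio of pooled CPM plus 10 CPM between neighbouring populations, among genes with at least 50 UMIs in the pair. These log2 ratios differ from ratios of the mean CPM, in which each cell counts alike and nothing is added. From S0-low to S0-medium, 20 members could be read. None was higher, where 0.407% of all genes were, and 1 was lower, Hist1h2bc, just past the limit, where 3.84% of all genes were. From S0-medium to S1 none of 16 members passed, where 0.185% of all genes were higher and 0.115% lower. From S1 to S2, 2 of 20 were higher, Hist1h2bc at 1.49 and Hist1h1c at 1.31, where 0.828% of all genes were, and none was lower, where 0.694% were. Both calls were lost when the populations were drawn on log10 antibody counts, where Hist1h2bc stood at 0.48 and Hist1h1c at 0.59.

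From S2 to S3, 2 of 21 members were higher, again Hist1h2bc at a log2 ratio of 1.56 and Hist1h1c at 1.01, where 0.946% of all genes were, and none was lower, where 2.59% were. From S3 to S4/S5 none of 14 was higher, where 0.144% of all genes were. Lower were 5 of the 14, Hist1h1b at -1.74, Hist4h4 at -1.60, Hist1h4i at -1.37, Hist1h2ap at -1.28 and Hist1h2al at -1.09, where 16.2% of all genes were lower. Of these 5, Hist1h4i alone has a signal in the tail, and with globin UMIs left out it stood at -0.66 and did not pass. With the antibodies scaled within each cell, Hist1h2al stood at -0.95 and did not pass. With called doublets kept, Hist1h1c stood at 0.98 in S3 over S2 and did not pass, and with 1 CPM added in place of 10 CPM, 10 members were lower in S4/S5 than in S3. No share of all genes is given at 1 CPM, so that count is not read as particular to the members.

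The median of all genes read moved as well, to -0.22 in S2 over S1, -0.40 in S3 over S2 and -0.62 in S4/S5 over S3 on the log2 scale, and with globin UMIs left out to -0.12, -0.13 and -0.15. The median of the members was 0.27, 0.12 and -0.85 in these steps, and without globin UMIs 0.35, 0.37 and -0.53. In the earlier steps it was 0.01 and 0.16, beside -0.03 and -0.07 for all genes. Relative to the median of all genes, Hist1h2bc stood at 1.71 and Hist1h1c at 1.52 in S2 over S1, and at 1.96 and 1.41 in S3 over S2. On the same relative scale in S4/S5 over S3, Hist1h1b stood at -1.12, Hist4h4 at -0.98, Hist1h4i at -0.75, Hist1h2ap at -0.66 and Hist1h2al at -0.47. In that step the median was -0.57 for 7 members with a signal in the tail and -1.09 for 7 without.

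**Figure D2:**
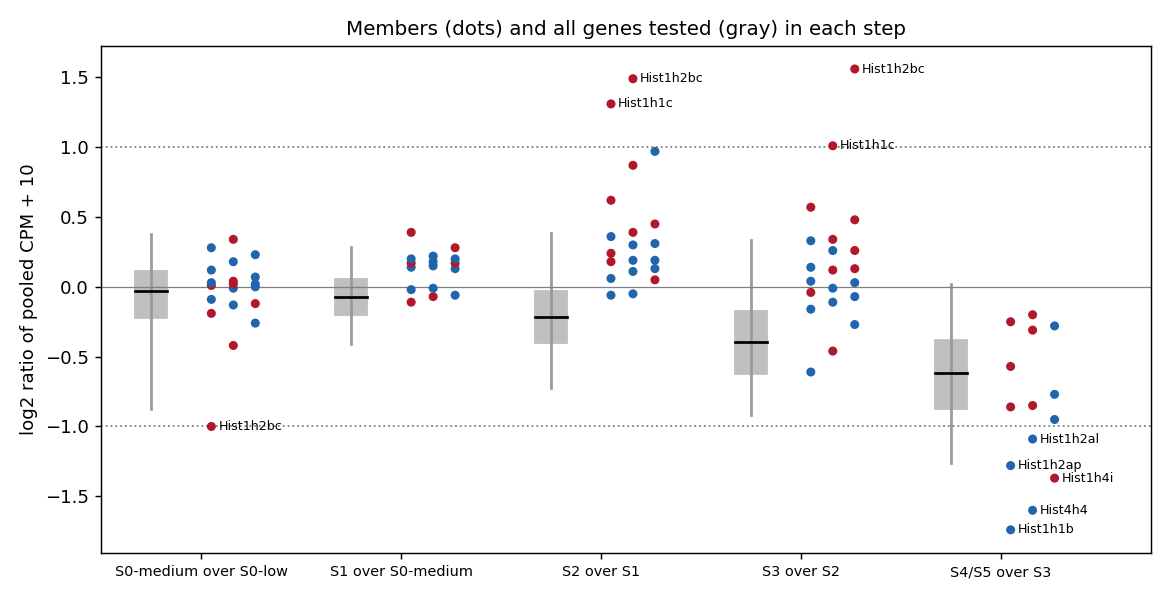
log2 ratio of pooled CPM plus 10 CPM (y axis) of each member read in each step between neighbouring populations (x axis), red with and blue without a polyadenylation signal in the annotated tail. Gray boxes and lines give the middle 25% to 75% and 5% to 95% of all genes read, black bars their median and dotted lines the 2-fold limit. Hist1h2bc and Hist1h1c lie above the limit in S2 over S1 and in S3 over S2, and 5 members lie below it in S4/S5 over S3.

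The linker histone genes differed among themselves. Hist1h1c, which encodes H1.2 (RefSeq symbol H1f2, chromosome 13 from 23738807 to 23739531 of GRCm38.p6), was at 24.7 CPM (21.5 to 28.6) in S0-low, 27.7 (23.9 to 32.2) in S0-medium, 33.5 (27.9 to 40.3) in S1, 117 (109 to 126) in S2, 212 (197 to 227) in S3 and 156 (143 to 170) in S4/S5. The 3 Ter119-low populations lay close together and below all later ones, and S3 was 8.55-fold (7.33 to 9.98) above S0-low. Outside globin UMIs Hist1h1c was higher in S4/S5, at 449 CPM, than in S3, at 393 CPM, so the direction of its last step depends on the denominator.

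Hist1h1b, which encodes H1.5 (RefSeq symbol H1f5, chromosome 13 from 21779832 to 21780625), was at 59.7 CPM (54.3 to 65.5) in S0-low, 75.5 (69.1 to 82.5) in S0-medium, 78.5 (70.4 to 87.7) in S1, 90.9 (84 to 98.3) in S2, 74.7 (66.6 to 83.6) in S3 and 16.1 (12.2 to 21.1) in S4/S5. Its level lay between 59.7 and 90.9 CPM in the first 5 populations and S4/S5 stood apart below them, at 0.216 (0.162 to 0.287) of S3. Outside globin UMIs it was 123 CPM in S3 and 34.3 CPM in S4/S5, and in UMIs per cell 0.427 and 0.0726, so this step went down on every scale. Hist1h1b and Hist1h1c thus changed places, from 59.7 against 24.7 CPM in S0-low to 16.1 against 156 CPM in S4/S5, as counts of 3′ ends that are not divided by length.

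In CPM, the other H1 genes also had their lowest level in S4/S5. Hist1h1e (H1.4) was at 31.7, 38.6, 33.8, 39.3, 35.8 and 14.4 CPM from S0-low to S4/S5, with overlapping intervals in the first 5 populations. Hist1h1d (H1.3) was at 7.98, 8.59, 9.28, 16.8, 14.7 and 4.22 CPM, and its interval in S4/S5 overlapped that in S0-low. Outside globin UMIs, without cells high in lists of other types, Hist1h1d was at 8.09 CPM in S0-low and 9.38 CPM in S4/S5. Hist1h1a (H1.1) was at 11.5, 15.2, 13.8, 16.4, 6.57 and 2.11 CPM and stood lower in S3 than in S2. The testis gene Hist1h1t had 1 UMI in S2 and none in the other populations.

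Among the H2B genes, Hist1h2bc (RefSeq symbol H2bc4, chromosome 13 from 23684199 to 23692480) had the largest difference between populations in CPM. It was at 87 CPM (80.8 to 93.9) in S0-low, 38 (33.7 to 43) in S0-medium, 35.2 (29.9 to 41.7) in S1, 174 (163 to 186) in S2, 413 (392 to 434) in S3 and 319 (301 to 339) in S4/S5. S2 was 4.94-fold (4.17 to 5.85) above S1, S3 2.37-fold (2.19 to 2.58) above S2 and S3 11.7-fold (9.95 to 13.8) above S1. It ranked behind Hist1h4i and Hist1h1b in S1 and first of all members in S3 and S4/S5. Outside globin UMIs Hist1h2bc was at 811 CPM in S3 and 840 CPM in S4/S5, so the step down after S3 is present in CPM and in UMIs per cell, at 1.93 and 1.34, and not on this scale.

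The higher level of Hist1h2bc in S0-low than in S0-medium moved with cells high in lists of other types. In the 142 cells that were high in the hepatocyte list and in no other, whether in a population or not, Hist1h2bc was at 312 CPM (282 to 347). Without all cells high in a list of another type, S0-low was at 56.8 CPM (50.7 to 63.6) and S0-medium at 37 CPM (32.8 to 42). The log2 ratio of S0-medium over S0-low was then -0.38 and no longer passed the limit. The later populations moved little, with Hist1h2bc at 174 CPM (162 to 186) in S2, 422 CPM (400 to 446) in S3 and 327 CPM (306 to 348) in S4/S5 without those cells.

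The other H2B members were far lower. Hist2h2be, in cluster 2 and known to give polyadenylated transcripts, was at 4.43, 5.35, 10.5, 18.3, 7.63 and 2.64 CPM from S0-low to S4/S5 and peaked in S2. Hist1h2bj was at 5.36, 2.9, 5.55, 8.53, 10.2 and 5.36 CPM and Hist3h2ba at 3.26, 1.63, 2.87, 5.13, 8.92 and 5.28 CPM, both highest in S3 and lowest in S0-medium. Hist1h2be was at 4.53, 3.22, 3.25, 5.26, 4.98 and 1.03 CPM and Hist1h2bm at 3.18, 2.21, 4.55, 3.56, 7.4 and 0.446 CPM, where the S4/S5 values rest on 4 and 2 UMIs.

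Among the H4 genes, Hist1h4i (RefSeq symbol H4c9, chromosome 13 from 22040960 to 22041362) had the most UMIs of all members. It was at 86.2 CPM (80 to 92.9) in S0-low, 121 (112 to 129) in S0-medium, 148 (137 to 161) in S1, 243 (231 to 255) in S2, 229 (214 to 244) in S3 and 80.8 (71.6 to 90.9) in S4/S5. In CPM it was higher at each step up to S2, S2 and S3 overlapped, and S4/S5 overlapped S0-low. Outside globin UMIs it was at 91.6 CPM in S0-low, 315 in S2, 394 in S3 and 211 in S4/S5. These last values leave out cells high in lists of other types. Hist4h4 (RefSeq symbol H4f16, chromosome 6 from 136803993 to 136804431), the one gene of cluster 4, was at 12.3 CPM (10 to 15.1) in S0-low, 17 (13.8 to 21) in S0-medium, 22.8 (18.1 to 28.9) in S1, 56 (50.2 to 62.5) in S2, 55.9 (48.8 to 64) in S3 and 11.4 (8.14 to 15.8) in S4/S5. S2 was 2.45-fold (1.92 to 3.13) above S1 in mean CPM, and the log2 ratio of pooled CPM plus 10 CPM was 0.97, just short of the limit, and 1.11 without globin UMIs. Hist2h4, which shares its stem-loop with Hist1h4i, was at 1.68, 2.29, 4.3, 10.1, 12.7 and 2.39 CPM. All 3 had their highest levels in S2 and S3. Hist4h4 has no signal in its annotated tail but belongs to the genes with known polyadenylated transcripts.

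Among the H2A genes, Hist3h2a (RefSeq symbol H2aw, chromosome 11 from 58954685 to 58955192), in cluster 3, was at 15.1 CPM (12.4 to 18.3) in S0-low, 7.54 (5.78 to 10.1) in S0-medium, 11.5 (8.45 to 15.9) in S1, 35.8 (31 to 41.2) in S2, 41.9 (36 to 48.9) in S3 and 20.5 (15.9 to 26.1) in S4/S5. In CPM, S2 and S3 overlapped and lay above the other populations. Outside globin UMIs, without cells high in lists of other types, S2 was at 48.2 CPM, S3 at 75.8 CPM and S4/S5 at 55.9 CPM. The H2A genes with symbols of clusters 1 and 2 and the most UMIs were flatter up to S3 in CPM. Hist1h2ap was at 25.1, 26.4, 30.5, 29, 22.1 and 3.94 CPM, with 17 UMIs in S4/S5, and Hist1h2al, which RefSeq lists as a transcribed pseudogene, was at 15.7, 17.4, 17.4, 20.2, 13.3 and 1.39 CPM. Despite its symbol, Hist1h2al lies apart from the other cluster 1 genes, on chromosome 13 from 51200084 to 51203066. Hist1h2ae was at 10.2, 10.6, 7.88, 9.41, 9.38 and 2.89 CPM and did not follow Hist3h2a although both have a signal in the tail. Hist1h2ak was at 3.43, 3.17, 3.84, 5.91, 6.28 and 2.48 CPM and Hist2h2ac at 4.17, 3.72, 4.91, 4.35, 3.97 and 1.06 CPM. The testis gene Hist1h2aa had at most 8 UMIs in a population and none in S4/S5, where counting alone allows up to 1.67 CPM.

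The H3 genes were barely captured. All 12 together were at 8.11 CPM (6.23 to 10.6) in S0-low, 5.36 (3.65 to 7.92) in S0-medium, 7.24 (4.83 to 11.1) in S1, 9.29 (7.17 to 12.1) in S2, 19.3 (15.2 to 24.4) in S3 and 11.2 (7.89 to 15.6) in S4/S5. S3 had the highest level, and its interval overlapped that of S4/S5 and no other. Hist2h3c1, named here because it has the most UMIs of the H3 genes, had 32 UMIs in S3 and between 2 and 21 in the other populations.

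**Figure D3:**
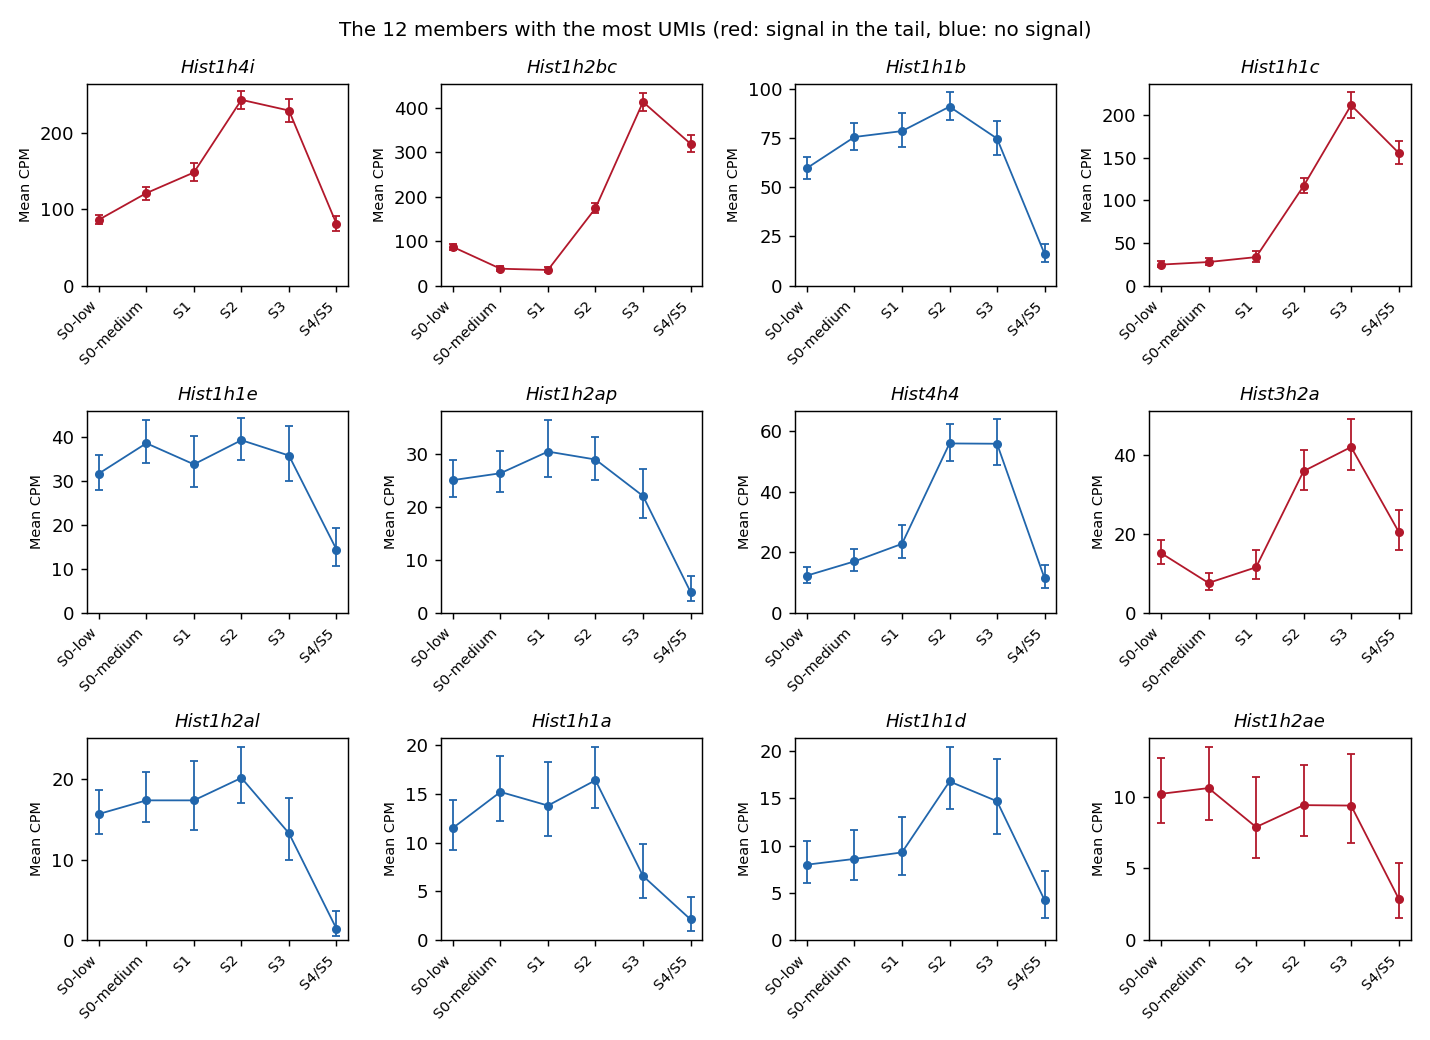
Mean CPM (y axis, from 0, scaled for each gene) of the 12 members with the most UMIs in the 6 populations (x axis), with 95% intervals of counting error in 1 library. Red marks members with and blue members without a polyadenylation signal in the annotated tail. Hist1h2bc, Hist1h1c and Hist3h2a are highest in S3 and lower in S4/S5. Hist1h1b, Hist1h2ap and Hist1h2al drop to their lowest level in S4/S5, and so do Hist1h4i and Hist1h2ae, which are red.

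Of the 29 members with at least 50 UMIs in the populations, 11 had their highest CPM in S3, 13 in S2, 4 in S1 and 1 in S0-medium. The lowest CPM lay in S4/S5 for 18 of them, which were 5 of the 11 with a signal in the tail and 13 of the 17 without. With globin UMIs left out, 22 of the 29 were highest in S3, 4 in S2 and 3 in S4/S5. No share over all genes is given beside these counts, so they are not read as particular to the members. The median log2 ratio of all genes in S4/S5 over S3 was -0.62, and -0.15 without globin UMIs.

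CD71 allowed a finer order of the cells than the populations. Among Ter119-low cells, divided into 10 groups by CD71, members without a signal in the tail stayed between 190 and 252 CPM. Members with a signal were at 312 CPM (282 to 343) in the group with the lowest CD71 and between 210 and 278 CPM in the others. Hist1h2bc went from 140 CPM (121 to 162) in the lowest to 33.9 CPM (26.7 to 43.5) in the highest group, while Hist1h4i went from 87.2 CPM (72.1 to 105) to 158 CPM (142 to 175). The 2 highest members thus moved in opposite directions across the Ter119-low cells, of which S0-low, at the low end of CD71, also held the hepatocyte markers.

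Among Ter119-high cells, divided in the same way, members without a signal were at 29 CPM (17.7 to 46.1) in the group with the lowest CD71 and at 328 CPM (294 to 367) in the group with the highest. Hist1h1b had no UMI in the first of these groups, where counting alone allows up to 8.45 CPM, and was at 101 CPM (82.4 to 123) in the last. Hist1h1c had a smaller difference, with 137 CPM (109 to 170) and 218 CPM (186 to 254), and so had Hist1h2bc, with 169 CPM (138 to 206) and 319 CPM (282 to 361). Globin genes took 72.9% of the UMIs in the first and 26.7% in the last. With globin UMIs left out, members without a signal were at 89.6 and 489 CPM in these groups and members with one at 1387 and 1502 CPM. On that scale Hist1h1c was at 541 and 356 CPM, and Hist1h2bc at 601 and 545 CPM, so neither was higher at the highest CD71. No intervals are given on that scale, and the values at the lowest CD71 rest on 86 and 110 UMIs. Hist1h2bc was highest at an intermediate CD71, in the seventh group, with 485 CPM (434 to 541) and 1010 CPM without globin UMIs. Its CPM interval there overlapped those of groups 4, 6, 8 and 9, so no single peak is read. Without globin UMIs groups 3 and 4 stood close to it, at 996 and 992 CPM.

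**Figure D4:**
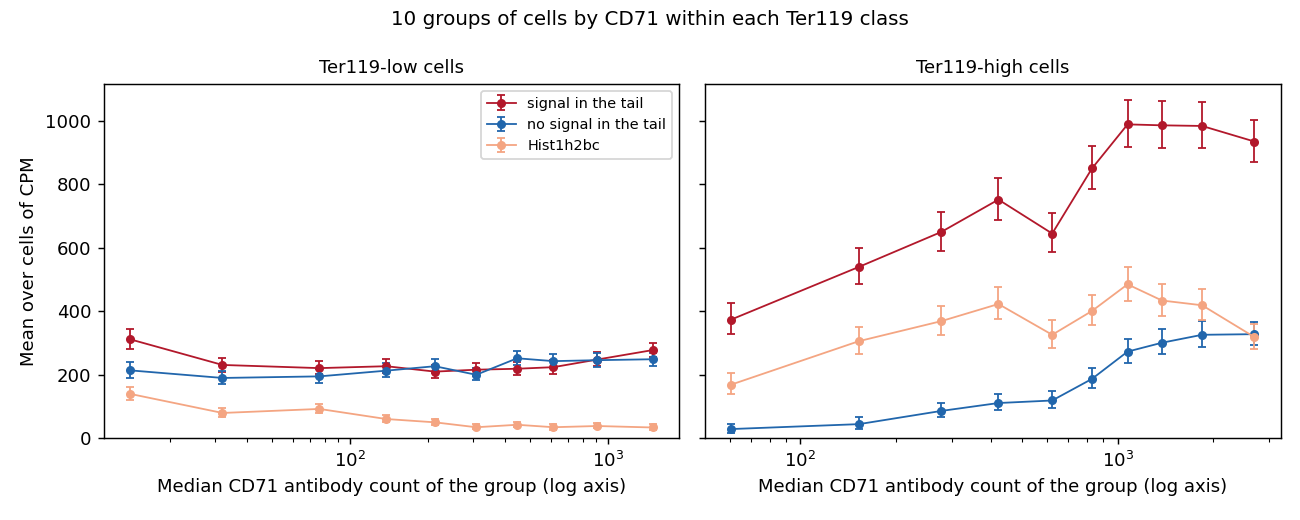
Mean CPM (y axis) in 10 groups of cells ordered by CD71 within the Ter119-low and within the Ter119-high cells, against the median CD71 count of the group (x axis, log scale), with 95% intervals of counting error in 1 library. In Ter119-high cells the members without a signal (blue) go from 29 to 328 CPM and the members with one (red) from 374 to 935 CPM between the lowest and the highest CD71.

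Since these genes are known for their tie to S phase, the cells of each population were ordered by the share of their UMIs that came from 31 DNA replication genes, globin and member UMIs left out, and split into 3 equal groups. The upper and the lower group, with the highest and lowest share, were compared. The summed level differed little. The ratio of the upper to the lower group was 1.01 (0.937 to 1.1) in S0-low, 1.13 (1.03 to 1.23) in S0-medium, 1.15 (1.04 to 1.29) in S1, 1.05 (0.989 to 1.12) in S2, 1.17 (1.09 to 1.26) in S3 and 1.21 (1.09 to 1.33) in S4/S5. With globin UMIs left out it was below 1 in S2 (0.931) and S3 (0.922). Over all populations together, none of 24 members was 2-fold higher, where 0.0612% of all genes were, and none was 2-fold lower, where 1.49% were. The median log2 ratio was 0.11 for the members and -0.04 for all genes.

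Behind this sum the members went opposite ways. Hist1h2bc was lower in the group with more replication transcripts, at 0.449 (0.386 to 0.523) of the other in S2 and 0.456 (0.397 to 0.522) in S3. Hist1h4i was higher in it, 1.48-fold (1.31 to 1.68) in S2 and 2.57-fold (2.14 to 3.08) in S3, and so were Hist1h1b, 1.57-fold (1.27 to 1.93) and 3.22-fold (2.3 to 4.5), and Hist4h4 in S3, 2.91-fold (1.93 to 4.39). In S3, members without a signal in the tail were at 405 against 144 CPM, a ratio of 2.81 (2.36 to 3.35), and members with one at 895 against 963 CPM, a ratio of 0.929 (0.856 to 1.01). Before S3 the ratio of the members without a signal lay between 1.09 (0.959 to 1.23) in S0-medium and 1.25 (1.11 to 1.42) in S0-low.

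These groups of S3 cells also differed in globin share, with 28% in the upper and 52.4% in the lower, and in median depth, with 4918.5 and 3786 UMIs. The part of either in the ratios was not tested beyond leaving out globin UMIs, which gave 2.34 for the members without a signal in S3, 2.01 for Hist1h4i and 0.365 for Hist1h2bc.

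**Figure D5:**
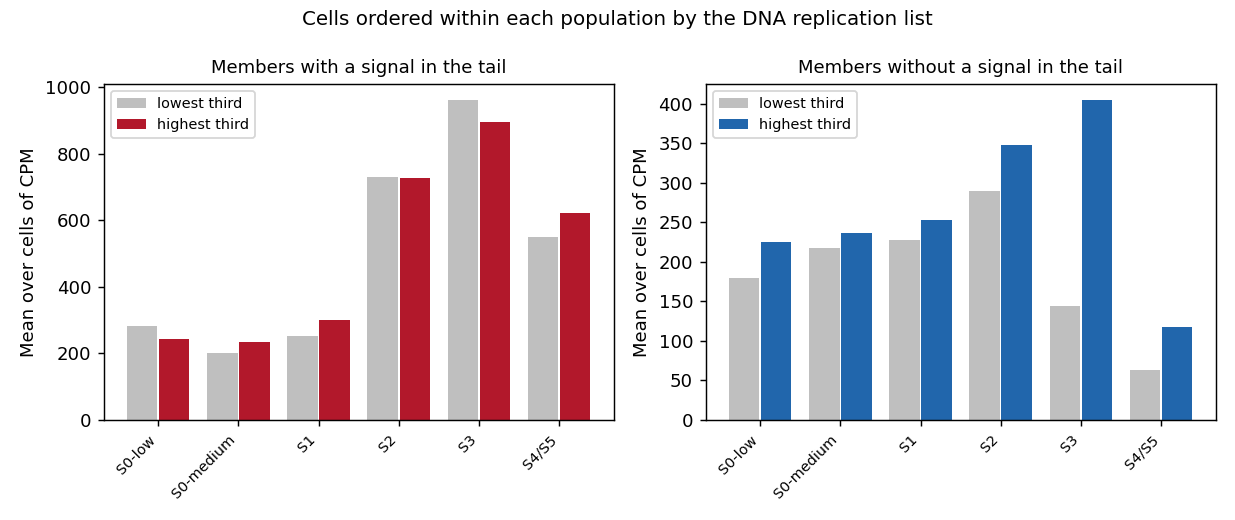
Mean CPM (y axis, from 0) in the lower (gray) and upper (colored) of 3 equal groups of cells, ordered by the share of DNA replication transcripts in each population (x axis), for members with and without a polyadenylation signal in the annotated tail. The widest gap is that of the members without a signal in S3, with 144 and 405 CPM. No intervals are drawn.

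Ordered by 26 genes of G2 and mitosis instead, the summed level in CPM was higher in the upper group from S1 onward. The ratio for all members was 1.2 (1.08 to 1.33) in S1, 1.6 (1.5 to 1.7) in S2, 2.92 (2.69 to 3.18) in S3 and 3.72 (3.33 to 4.17) in S4/S5, after 0.757 (0.698 to 0.821) in S0-low. For Hist1h2bc it was 0.335 (0.278 to 0.403) in S0-low, 1.78 (1.52 to 2.1) in S2, 2.04 (1.78 to 2.35) in S3 and 3.85 (3.26 to 4.55) in S4/S5. In CPM, Hist1h2bc was therefore lower with more replication transcripts and higher with more mitotic ones in S2 and S3. Hist1h1b was higher with both, with 1.71 (1.42 to 2.07) in S2 and 6 (4.12 to 8.76) in S3 by the mitotic genes. All these ratios are in CPM. They are given without the globin share and depth of the groups, and the part of either is not shown.

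Genes that act on histone transcripts were read by the same limits. Of 14 genes of histone transcript synthesis, 3′ processing and decay, none passed the 2-fold limit before S3 over S2. Slbp, which encodes the stem-loop binding protein, was at 380, 645, 1026, 1433, 682 and 155 CPM from S0-low to S4/S5, with its peak in S2, and it fell by 2.06 on the log2 scale from S3 to S4/S5. Casp8ap2, which takes part in histone gene transcription, fell by 1.04 from S2 to S3, with 57 and 20.8 CPM. It was the 1 of 13 genes read that was lower in that step, where 2.59% of all genes were. From S3 to S4/S5, 4 of 12 genes were lower, Slbp, Cpsf2 of the cleavage complex, the nuclease gene Eri1, and Srrt, where 16.2% of all genes were lower. The median log2 ratio of the 12 was -0.84, and -0.53 without globin UMIs.

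Of 11 histone genes outside the clusters, 5 of 9 read were lower in S4/S5 than in S3, among them H2afz, which encodes H2A.Z, and H3f3b, which encodes H3.3, where 16.2% of all genes were. The median log2 ratio of the 9 was -1.04, and -0.32 without globin UMIs. H2afz was at 5651, 5703, 5834, 5245, 3005 and 1194 CPM from S0-low to S4/S5. H3f3a, also a gene of H3.3, was at 1394, 1590, 2184, 4221, 5184 and 2792 CPM, highest in S3 like the clustered genes in sum, and passed the limit in no step. Of 10 read, 2 were lower in S0-medium than in S0-low, H2afy, which encodes macroH2A1, and H1fx, where 3.84% of all genes were. H2afy was at 605 CPM in S0-low and 93.9 CPM in S0-medium. Of S0-low cells, 27.1% were high in a list of another cell type, and their part in these 2 values was not tested. H1f0, the linker histone gene known from cells that stop dividing, was at 116, 73.9, 85, 72.6, 18.4 and 12.5 CPM. It fell by 1.38 on the log2 scale from S2 to S3, where 2.59% of all genes were lower. Hist1h1c rose in that step, at 1.01, and more in S2 over S1, at 1.31, where H1f0 did not pass the limit.

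Of 17 histone chaperone genes, 2 were lower in S3 than in S2, Nasp and Ssrp1, where 2.59% of all genes were, and 10 were lower in S4/S5 than in S3, where 16.2% were. Their median log2 ratio was -0.59 and -1.03 in these steps, and -0.34 and -0.57 without globin UMIs. They summed to 2785, 3018, 3006, 2409, 1348 and 553 CPM, with no rise in S2 or S3. Asf1b, whose protein hands H3 and H4 to other chaperones, was at 97.9, 143, 181, 263, 228 and 70.1 CPM, with its CPM peak in S2. Without globin UMIs Asf1b was higher in S3, at 378 CPM, than in S2, at 329 CPM. The 31 DNA replication genes summed to 4523, 5833, 6836, 6905, 3593 and 1262 CPM, and 23 of them were lower in S4/S5 than in S3, at a median log2 ratio of -1.26, or -0.79 without globin UMIs. The 26 genes of G2 and mitosis summed to 3142, 3886, 4478, 5912, 6113 and 3090 CPM, and 19 of them were lower in that step, at a median of -1.20, or -0.57 without globin UMIs, beside the same 16.2% of all genes.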

How the data were processed

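The authors mapped the cDNA reads of 1 CITE-seq library to mm10 with Cell Ranger and deposited counts of UMIs per gene and cell, and raw counts per antibody, per the labels. Seurat is also named in the submitters' processing notes. Of 7863 cells, 7244 remained with 300 to 5000 genes, at most 9% mitochondrial UMIs and no doublet call (Scrublet method, expected rate 6%), and 6424 had summed counts of 5 lineage antibodies below 95.8, the median plus 2 scaled median absolute deviations on a log scale. After a centered log ratio across cells, k-means split Ter119 at counts of 24.6 and 88.5, CD71 at 234 and 762 in Ter119-low cells and at 732 in Ter119-high cells. The 6 populations hold 6210 cells, and 214 lay in none. Depth was 2510 to 38047 UMIs per cell (median 5707).

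Calls needed 50 UMIs and 2-fold after adding 10 CPM. Cells were high in a list of another type at over 5 scaled median absolute deviations above the median of log2 CPM plus 100. Members were named if they were among the 20 with the most UMIs, passed 2-fold, are known to be polyadenylated or are known from testis, and other genes if they were among the 4 with the most UMIs of a list or passed. The members and lists were chosen with earlier results of these data known. The scripts were tested on simulated data. The scripts ran scanpy 1.11.5, scikit-learn 1.9.0, scipy 1.17.1, numpy 2.4.6, pandas 2.3.3 and matplotlib 3.10.9 under Python 3.11.15 with seed 7. The 20 alternatives tried changed the denominator, antibody scale and classes, cell filters, pseudocount, UMI minimum, ordering of cells and members summed. Hist2h3c1, Hist2h3c2, Hist2h2bb, Hist1h2bb, Hist1h3h and Hist1h2bq were named after their values were seen.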

Additional observations from a re-analysis of the deposited data

How the results depend on the processing

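S0-medium over S0-low, at 1 for the sum, became 1.3 in UMIs per cell and 0.91 without Hist1h4i, 0.888 with Ter119 and CD71 as log10 of the counts, 0.928 with antibodies scaled within each cell and 0.908 with a Gaussian mixture. S2 over S1 of the sum, at 1.85, was 2.34 without globin UMIs, 1.17 in UMIs per cell, 1.67 in pooled CPM, 1.47 on the log10 scale and 2 with scaling within cells. S3 over S2, at 1.31, was 1.75 without globin UMIs, 1.12 in UMIs per cell, 1.44 without Hist1h4i, 1.49 in pooled CPM, 1.69 on the log10 scale, 1.1 with scaling within cells, 1.45 with the mixture and 1.38 without border cells. S4/S5 over S3, at 0.549, was 0.799, 0.458 and 0.594 without globin UMIs, in UMIs per cell and without Hist1h4i, 0.579 on the log10 scale and 0.504 without border cells. For the members with a signal in the tail, S3 over S1 went from 3.64 to 1.69 and S4/S5 over S3 from 0.628 to 0.374 without Hist1h2bc and Hist1h1c, and for those without a signal S3 over S1 went from 1.14 to 1.01 without Hist4h4. Both splits were added after the data were seen.

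The 1 member lower in S0-medium became 0 without globin UMIs, on the log10 scale, with scaling within cells, with the mixture and with doublets kept. The count was also 0 without cells high in lists of other types, and with the lineage limit on unlogged counts. That limit was added after the data were seen. The 2 members higher in S2 became 4 with a pseudocount of 1 CPM, without globin UMIs and with scaling within cells, and 0 on the log10 scale, where Hist1h2bc stood at 0.48 and Hist1h1c at 0.59. The 2 higher in S3 became 1 with doublets kept, and Hist1h2al in S4/S5 over S3 stood at -0.95 with scaling within cells. With a pseudocount of 1 CPM, 1 member was lower in S3 and 10 in S4/S5, against 0 and 5. Shares of all genes are not given for the changed settings, so these counts are not read as particular to the members. The mean log2 ratio between cells with more and fewer replication transcripts, at 0.16, was 0.06 after thinning to 2000 UMIs, 0.40 between the 10% of cells at either end, 0.65 by the G2 and mitosis genes and 0.06 without Hist1h4i. Of the values for single members, 108 stayed past the limit and 12 did not. Causes were not tested. No paired analysis was possible because there was 1 library, and no replicate could be left out. Depth limits the 39 members with under 50 UMIs.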

Other observations

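Cells high in 1 list of another cell type, taken over all cells that passed the quality filters and not only over the 6 populations, also held clustered histone transcripts. In 142 cells high in hepatocyte markers all members summed to 547 CPM (507 to 591), of which 471 CPM (434 to 512) came from members with a polyadenylation signal in the tail and 73.6 CPM (60.4 to 91.4) from those without. Hist1h2bc alone was at 312 CPM (282 to 347) in these cells, and Hist4h4 had 1 UMI. In 43 cells high in megakaryocyte markers the sum was 1134 CPM (997 to 1290), with Hist1h2bc at 482 CPM (392 to 591) and Hist1h1c at 308 CPM (238 to 398), at a globin share of 0.846%. In 171 cells high in granulocyte and monocyte markers the sum was 441 CPM (397 to 491), with Hist1h2bc at 70.8 CPM (53 to 94) and Hist4h4 at 27.1 CPM (17.5 to 42).

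In 146 cells high in macrophage markers, 31.4% of the UMIs came from globin genes and the members summed to 866 CPM (789 to 949). Barcodes that hold more than 1 cell were removed only as far as a caller marked them, and their part in this value was not tested. Cells of the populations also passed this list, namely 54, 9, 5, 24, 25 and 39 from S0-low to S4/S5. Cells high in a further list are included in these counts. The 7 macrophage markers summed to only 50.1, 9.2, 9.51, 11.6, 15.5 and 19.7 CPM in the same order. Whether the 146 cells are macrophages was not tested. In 100 cells high in embryonic globins the members summed to 285 CPM (234 to 345), and to 1019 CPM outside globin UMIs, at a globin share of 75.1%.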
